A study of Mus musculus with 16 samples.

Results

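The 55 genes described here encode proteins that license replication origins, unwind DNA and copy it at the fork, together with the G1/S kinases and E2F factors that govern their expression. They were listed by gene symbol with no cut on a measured value, although earlier results of these data were known. They make up 55 of the 20622 genes in the total RNA tables. All 55 had ribosome-protected fragment (RPF) counts. Ribosome profiling sequences the mRNA stretches covered by ribosomes, so an RPF count measures how many ribosomes were on a coding sequence, whereas total RNA measures the mRNA itself. RPFs and cytoplasmic total RNA were sequenced from the same lysates of KMNTC and KM4A2cr cells (labelled KM_NTC and KM_4A2cr), giving 16 libraries, 4 of either kind for each line. KM cells were derived from lung tumours of 1 male mouse at clinical endpoint, with 2 copies of the Rosa26 allele LSL-MYC (LSL-MYC/LSL-MYC), so both lines carry additional MYC. KMNTC cells received Cas9 with a non-targeting guide. KM4A2cr cells received Cas9 with a guide against the coding region of Eif4a2, which encodes the RNA helicase eIF4A2, and are a pool of 4 eIF4A2-negative clones. Both lines were selected with puromycin after lentiviral transduction, KM cells had been cultured with cholera toxin against fibroblast growth, and no treatment was given in the experiment itself. Replicates were independent experiments on different days. Differences between the lines therefore include any difference between the pooled clones and the KMNTC population, and 1 mouse is the source of all libraries.

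In G1, the origin recognition complex (Orc1, Orc2, Orc6) together with Cdc6 and Cdt1 loads the MCM2-7 helicase onto DNA, and geminin (Gmnn) blocks further loading once S phase has begun. Cdc45 and the GINS complex (Gins1 to Gins4) join MCM2-7 to form the active helicase, with Mcm10 acting at the same step. DNA polymerase alpha with primase starts each strand, polymerases epsilon and delta extend it, and PCNA is the sliding clamp loaded by the RFC complex. Transcription of most of these genes is driven by E2F factors when cyclin E and CDK2 inactivate the RB family, which makes the group a readout of entry into S phase.

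Promoter sequences were available for 44 of the 55 genes, in 54 windows of RefSeq (GRCm38.p6) that run from 250 bases before to 50 after an annotated transcript start. E2F-type sites were searched as TTTGGCGC, TTTCGCGC, TTTCCCGC and TTTGGCGG on both strands, with overlapping matches allowed. At least 1 of these was present in 25 of the 54 windows (46.3%), whereas 2.37% of all 32851 windows in the table held one. The CCAAT box (CCAAT on either strand) was present in 63.0% of the replication gene windows and in 37.4% of all windows. The CHR element of mitotic genes (TTTGAA on either strand) was present in 16.7% of the replication gene windows, close to the 17.9% of all windows, while 72.9% of the windows of 45 mitotic genes held it and 8.33% of those held an E2F-type match. The 5 windows below were picked for their matches and calls. Mcm6 and Mcm5 each hold an overlapping pair of E2F-type matches. Cdc6 holds a single match and was called in total RNA, and Pold2 and Orc2 were called without any match in this window. Capitals mark the E2F-type matches, and each sequence is written 5′ to 3′ in the direction of the gene.
Mcm6 (chr1:128359656-128359955, minus strand): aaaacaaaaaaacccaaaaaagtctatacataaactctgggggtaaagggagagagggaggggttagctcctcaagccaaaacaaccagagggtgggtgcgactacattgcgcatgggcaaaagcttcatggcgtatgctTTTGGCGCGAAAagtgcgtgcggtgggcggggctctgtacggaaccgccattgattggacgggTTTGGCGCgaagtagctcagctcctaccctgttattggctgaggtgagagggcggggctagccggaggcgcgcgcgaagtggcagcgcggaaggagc
Mcm5 (chr8:75109259-75109558, plus strand): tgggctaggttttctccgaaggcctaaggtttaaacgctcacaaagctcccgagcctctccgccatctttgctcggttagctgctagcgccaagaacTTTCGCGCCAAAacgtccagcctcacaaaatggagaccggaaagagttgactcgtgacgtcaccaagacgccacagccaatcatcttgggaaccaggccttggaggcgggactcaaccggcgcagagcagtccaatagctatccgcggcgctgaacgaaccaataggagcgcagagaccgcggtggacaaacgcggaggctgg
Cdc6 (chr11:98907901-98908200, plus strand): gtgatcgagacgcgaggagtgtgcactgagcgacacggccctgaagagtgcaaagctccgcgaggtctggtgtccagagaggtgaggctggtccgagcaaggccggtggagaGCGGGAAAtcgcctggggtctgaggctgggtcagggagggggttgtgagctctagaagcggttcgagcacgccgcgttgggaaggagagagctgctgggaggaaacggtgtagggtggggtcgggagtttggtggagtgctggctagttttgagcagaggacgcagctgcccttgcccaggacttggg
Pold2 (chr11:5878207-5878506, minus strand): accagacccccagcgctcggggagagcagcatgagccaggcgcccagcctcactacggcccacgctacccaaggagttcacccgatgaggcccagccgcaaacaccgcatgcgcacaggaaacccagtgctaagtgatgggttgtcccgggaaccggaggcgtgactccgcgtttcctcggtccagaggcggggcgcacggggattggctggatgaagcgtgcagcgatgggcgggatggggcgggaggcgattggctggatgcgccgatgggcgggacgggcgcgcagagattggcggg
Orc2 (chr1:58505060-58505359, minus strand): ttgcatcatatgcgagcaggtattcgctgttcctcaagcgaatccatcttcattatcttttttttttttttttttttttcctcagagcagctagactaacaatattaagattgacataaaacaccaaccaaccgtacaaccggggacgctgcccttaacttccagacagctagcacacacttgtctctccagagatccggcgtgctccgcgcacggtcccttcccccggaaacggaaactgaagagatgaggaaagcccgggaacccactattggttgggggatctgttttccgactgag
Mcm6 holds 3 matches, an overlapping pair at -110 and -106 relative to the start and a single one at -47, and Mcm5 holds an overlapping pair at -153 and -149. The absence of a match in Pold2 and Orc2 says only that these letters are not in the window.

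Library totals ranged from 4512403 to 9621848 RPF counts and from 5350919 to 9312622 total RNA counts, and replicate 4 had the lowest total of each line in both kinds of library. Levels are given as CPM, the counts of a gene per 1000000 counts of its library after TMM normalisation, which does not allow for gene length. Eif4a2, the targeted gene, had 97.7, 122, 99.8 and 389 RPF CPM in KMNTC replicates 1 to 4 and 51.0, 88.4, 74.8 and 346 in KM4A2cr, lower in KM4A2cr in 4 of 4 pairs. Its RPF log2 fold change was -0.49 ± 0.15 (SE, n = 4 pairs; adjusted p = 0.0941), and the ranges of the lines overlapped because replicate 4 was high in both. Footprints of the targeted gene thus remained in KM4A2cr, for which the study assessed loss of the protein by western blot. Epithelial markers were abundant, with a summed level of 4515 to 7093 TPM (a transcript abundance that allows for length) in KM4A2cr and 4784 to 5499 in KMNTC. Alveolar type II markers had a summed level of 43.3 to 59.1 TPM, mostly from Abca3 at 27.6 to 47.6 TPM and Etv5 at 6.19 to 21.4 TPM. The other type II markers were low, with 5 of 8 under 1 TPM in every library, and the surfactant genes Sftpc and Sftpb were at 0 throughout. The study lists expression of surfactant protein C, the product of Sftpc, among its checks of cell identity. Of the markers of other cells, 7 of 9 fibroblast, 3 of 4 endothelial and 5 of 6 leukocyte genes were under 1 TPM in every library, the leukocyte exception being Cd68 at 32.5 to 220 TPM.

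To ask whether ribosome occupancy of the replication genes differed in the eIF4A2-edited line, RPF counts were compared between the lines with the replicate as a block. Replication gene footprints differed little. Pold2, which encodes the regulatory p50 subunit of DNA polymerase delta, was lower in KM4A2cr and was the only 1 of 55 that passed an adjusted p of 0.1, whereas 10.3% of all 10291 tested genes passed (3.72% lower and 6.6% higher). The median log2 fold change was -0.13 for the 55 genes and -0.01 for all tested genes, with 37 of the 55 below 0 and 18 above. Values ran from -0.58 for Pold2 to 0.46 for E2f8, and the 95% interval lay between -1 and 1 for 50 of the 55. At an unadjusted p under 0.05 there were 9 genes (16.4%, beside 23.4% of all tested genes), of which Pold2, Prim2, Mcm10, Chaf1b, Mcm4, Rfc4, Asf1b and Chaf1a were lower and E2f8 was higher. By direction these were 8 of 55 lower and 1 higher, beside 1053 lower and 1358 higher of all 10291 tested genes. Of the 55 genes, 16 were lower in all 4 replicate pairs and 3 were higher in all 4. Of all 10291 tested genes 1649 (16.0%) and 1452 (14.1%) were so. The share lower in every pair was thus larger than that of all tested genes, and the share higher in every pair was smaller. The bulk libraries cannot tell fewer cells in S phase from less mRNA or fewer ribosomes per cell. The call of Pold2 was lost when replicate 1, 2 or 3 was left out, with adjusted p up to 0.346. In those 3 fits 2.27%, 1.20% and 0.31% of all genes passed. The call was also lost without the replicate block, where 0 of all 10291 genes passed and 1 of the 55 had an unadjusted p under 0.05. With replicate 4 left out, 7 replication genes were lower (Pold2, Mcm4, Mcm10, Asf1b, Chaf1b, Prim2 and Rfc4) and 5 were higher (Cdc6, Ccne2, E2f1, E2f8 and Tipin). This is 21.8% of the 55 against 33.4% of all genes tested in that fit.

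**Figure D1:**
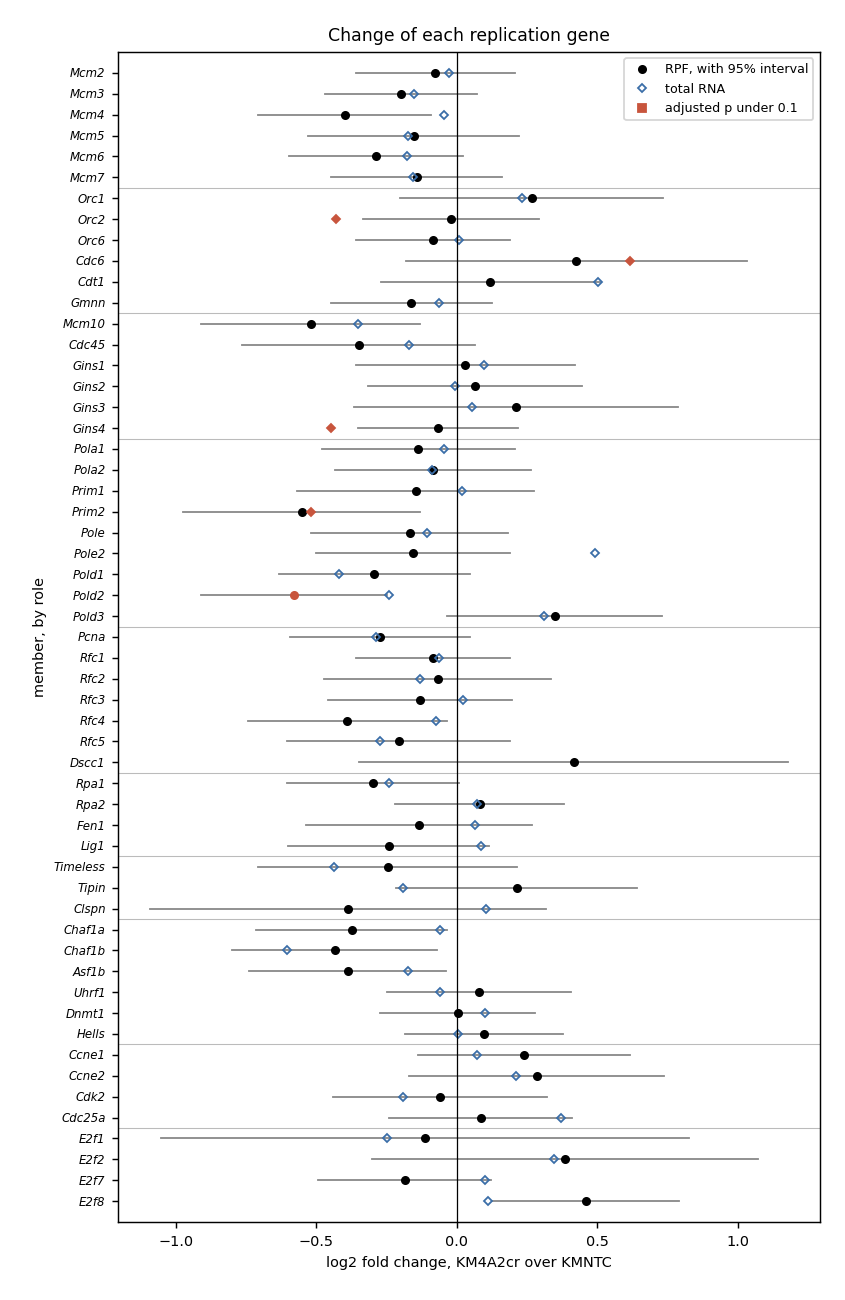
Log2 fold change of KM4A2cr over KMNTC (x axis) for the 55 replication genes, grouped by role (y axis). Circles are RPF values with 95% intervals, diamonds are total RNA values (none for Dscc1), and filled red symbols passed an adjusted p of 0.1. Red marks are limited to Pold2 in RPFs and to Cdc6, Orc2, Gins4 and Prim2 in total RNA.

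The mRNAs of the same genes were compared next. Total RNA of 54 of the 55 genes was tested, since Dscc1, a subunit of an alternative clamp loader, was below the filter with 0.23 to 2.80 CPM. In KM4A2cr, Cdc6 mRNA was higher and the mRNAs of Orc2, Gins4 and Prim2 were lower, so 4 of 54 (7.41%) passed, beside 6.13% of all 10880 tested genes. In the lower direction 3 genes passed, where 1.78% of all tested genes did, and in the higher direction 1 passed, where 4.35% did. The median log2 fold change was -0.06, with 32 genes below 0 and 22 above, and that of all tested genes was 0.01. DESeq2 called 0 of the 54 (5.41% of all genes passed), with 5 at an unadjusted p under 0.05. Using upper-quartile factors, edgeR called the 3 lower genes and none higher (4.97% of all genes passed). Without replicate 4, 9 were lower and 3 were higher, where 29.8% of all genes passed. Translational efficiency (TE), the change in RPFs over and above that in mRNA, was tested as the interaction between line and library kind. It was higher for Orc2 in KM4A2cr and passed for no other of 54 genes (1 of 54; 2.91% of all 9989 tested genes passed, 1.04% lower and 1.87% higher). The median TE change was -0.01.

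The MCM2-7 helicase consists of 6 related subunits that encircle DNA. None of the 6 passed the test in RPFs, total RNA or TE, yet all 6 log2 fold changes were below 0 in RPFs and in total RNA, under each of the 4 scalings tried. At an unadjusted p under 0.05 Mcm4 was the only one in RPFs and in TE, and 0 of the 6 were in total RNA. With libraries scaled by their totals alone, Mcm4 and Mcm6 passed in RPFs, where 15.7% of all tested genes passed. Mcm4 had the lowest RPF value at -0.40 ± 0.14 (SE, n = 4 pairs; adjusted p = 0.126) and Mcm2 the closest to 0 at -0.08 ± 0.12. Mcm4 had 117, 112, 76.6 and 41.5 RPF CPM in KMNTC replicates 1 to 4 and 108, 78.8, 61.0 and 25.6 in KM4A2cr. Every KM4A2cr value was below that of its own pair, although the ranges of the lines overlapped widely. Mcm6 had 116, 111, 90.9 and 26.2 RPF CPM in KMNTC and 99.8, 105, 74.1 and 16.4 in KM4A2cr. Mcm3 had 123, 120, 83.5 and 37.6 RPF CPM in KMNTC and 106, 108, 77.6 and 29.6 in KM4A2cr. Both Mcm6 and Mcm3 were lower in 4 of 4 pairs, with RPF log2 fold changes of -0.29 ± 0.14 and -0.20 ± 0.12. Mcm2 had 47.1, 38.6, 29.2 and 13.0 RPF CPM in KMNTC and 45.3, 37.5, 28.6 and 11.0 in KM4A2cr, lower in each pair by less than the spread between replicates. Mcm7 had 83.8, 83.2, 64.8 and 18.7 RPF CPM in KMNTC and 91.7, 64.9, 59.5 and 15.6 in KM4A2cr. Mcm5 had 40.6, 40.8, 37.3 and 7.97 RPF CPM in KMNTC and 42.4, 42.1, 31.6 and 4.04 in KM4A2cr. Mcm7 was higher in the first pair and lower in the other 3, and Mcm5 was higher in 2 pairs and lower in 2. The median log2 fold change of the 6 subunits was -0.18 in RPFs and -0.15 in total RNA. When replicate 2 was left out, 2 of the 6 total RNA values rose above 0.

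Among the genes of origin licensing, Orc2 and Cdc6 carried the calls. Orc2, a core subunit of the origin recognition complex, had 97.1, 94.3, 96.3 and 63.4 CPM of total RNA in KMNTC and 67.5, 69.1, 68.5 and 53.5 in KM4A2cr. In replicates 1 to 3 all KMNTC values were above all KM4A2cr values, and only the low KMNTC value of replicate 4 brought the ranges into overlap. The total RNA log2 fold change was -0.43 ± 0.12 (SE, n = 4 pairs; adjusted p = 0.0852). Orc2 footprints had 60.0, 36.3, 40.3 and 36.3 CPM in KMNTC and 48.4, 34.4, 41.8 and 44.4 in KM4A2cr. They were lower in 2 pairs and higher in 2, and the RPF log2 fold change was -0.02 ± 0.14 (95% interval -0.33 to 0.29). The ratio of RPF to total RNA CPM was 0.618, 0.385, 0.418 and 0.572 in KMNTC and 0.717, 0.498, 0.610 and 0.831 in KM4A2cr, higher in KM4A2cr in every pair. The TE log2 fold change was 0.40 ± 0.11 (adjusted p = 0.0772), the one TE call among the replication genes. It was lost when replicate 1, 2 or 3 was left out, with adjusted p up to 0.296, and was 0.0487 without replicate 4. The total RNA call was lost likewise, with adjusted p up to 0.455.

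Cdc6, the ATPase that recruits MCM2-7 to the origin recognition complex, had 14.4, 8.09, 9.47 and 4.79 CPM of total RNA in KMNTC and 20.4, 13.1, 11.2 and 11.1 in KM4A2cr. The value was higher in KM4A2cr in 4 of 4 pairs, while the ranges overlapped. The total RNA log2 fold change was 0.62 ± 0.18 (SE, n = 4 pairs; adjusted p = 0.0941, and up to 0.374 when 1 replicate was left out). Cdc6 footprints had 27.2, 11.8, 9.59 and 4.83 CPM in KMNTC and 32.5, 18.3, 20.2 and 1.62 in KM4A2cr. They were higher in the first 3 pairs and lower in the fourth, so that the RPF log2 fold change of 0.43 ± 0.27 did not pass (adjusted p = 0.378). Geminin, the inhibitor of Cdt1, had 66.5, 59.4, 54.8 and 34.8 RPF CPM in KMNTC and 58.2, 54.7, 42.6 and 36.1 in KM4A2cr. At -0.16 ± 0.13 it had the lowest RPF log2 fold change of the licensing genes, and it too did not pass. Orc1, Orc6 and Cdt1 lay between geminin and Cdc6 in RPFs, and none passed in either kind of library.

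The genes of helicase activation were mixed. Gins4, which encodes the SLD5 subunit of GINS, had 30.3, 30.6, 26.4 and 24.9 CPM of total RNA in KMNTC and 24.9, 23.0, 18.9 and 15.7 in KM4A2cr. The lowest KMNTC value was just above the highest KM4A2cr value, and Gins4 was the only 1 of 55 replication genes whose ranges did not overlap in total RNA, as held for 1.97% of all tested genes. The total RNA log2 fold change was -0.45 ± 0.13 (SE, n = 4 pairs; adjusted p = 0.0977, and up to 0.452 when 1 replicate was left out). Gins4 footprints had 33.8, 31.5, 32.3 and 26.9 CPM in KMNTC and 35.0, 28.9, 27.5 and 27.7 in KM4A2cr, with an RPF log2 fold change of -0.07 ± 0.13. Footprint ranges overlapped, and no replication gene was without overlap in RPFs, where 2.13% of all genes were. Mcm10 had 21.7, 16.7, 12.2 and 4.41 RPF CPM in KMNTC and 16.9, 11.2, 6.45 and 4.31 in KM4A2cr. Its RPF log2 fold change of -0.52 ± 0.17 was below 0 in 4 of 4 pairs and did not pass (adjusted p = 0.118). Gins3 was scarce, with 1.29 to 3.89 RPF CPM in KMNTC and 1.23 to 3.86 in KM4A2cr, and had the highest RPF value of this role at 0.21 ± 0.26. Cdc45, Gins1 and Gins2 passed in neither kind of library.

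**Figure D2:**
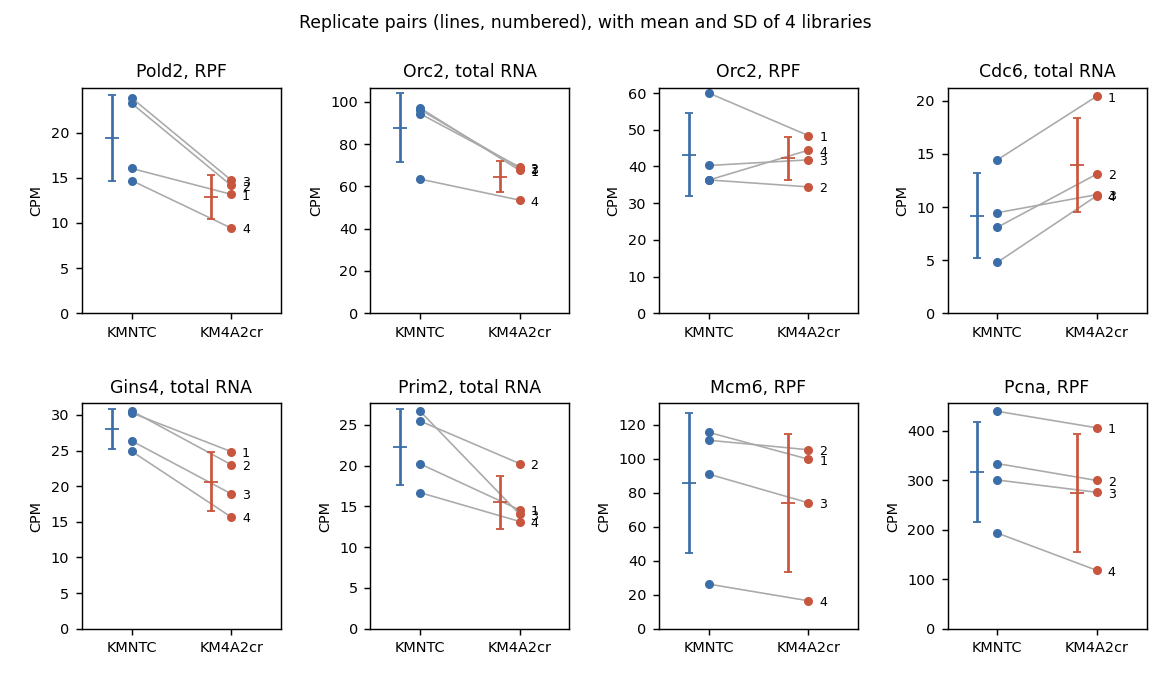
CPM (y axis, from 0) of 7 replication genes in the 4 KMNTC and 4 KM4A2cr libraries, in RPFs or total RNA as titled. Grey lines join libraries of 1 replicate, numbered at the right, and bars give the mean and SD of 4 libraries. In every panel apart from Orc2 RPFs the 4 grey lines slope the same way, and replicate 4 lies lowest in both cell lines.

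The 9 genes of polymerases and primase held the lowest footprint values of the group, and 8 of the 9 RPF log2 fold changes were below 0. Pold2 had 16.0, 23.2, 23.8 and 14.7 RPF CPM in KMNTC and 13.2, 14.1, 14.7 and 9.42 in KM4A2cr. The KM4A2cr value was lower in every pair, and the lines overlapped only at the lowest KMNTC and highest KM4A2cr values. The RPF log2 fold change was -0.58 ± 0.15 (SE, n = 4 pairs; 95% interval -0.91 to -0.25; adjusted p = 0.0613). Pold2 total RNA had 12.8, 19.8, 21.6 and 12.8 CPM in KMNTC and 12.6, 15.1, 16.5 and 12.0 in KM4A2cr, also lower in 4 of 4 pairs, and did not pass. Prim2, the large subunit of primase, was lower in both kinds of library. Its total RNA had 20.2, 25.5, 26.6 and 16.7 CPM in KMNTC and 14.6, 20.2, 14.0 and 13.1 in KM4A2cr, with a log2 fold change of -0.52 ± 0.15 (adjusted p = 0.0986, and up to 0.529 when 1 replicate was left out). Its RPFs had 17.7, 20.4, 22.5 and 12.0 CPM in KMNTC and 13.2, 19.6, 11.4 and 6.19 in KM4A2cr, with -0.55 ± 0.19 (adjusted p = 0.122). Prim2 was thus lower by like amounts in footprints and mRNA, but passed only in mRNA. Pold3, another accessory subunit of polymerase delta, went the other way. It had 13.5, 9.73, 7.94 and 6.71 RPF CPM in KMNTC and 14.0, 11.3, 11.4 and 11.6 in KM4A2cr, and at 0.35 ± 0.17 (adjusted p = 0.253) did not pass. Pola2, named after its values were seen, had 76.3 to 226 CPM of total RNA with the highest value of each line in replicate 4, and 6.46 to 25.3 RPF CPM with the lowest of each line there.

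PCNA had the highest mean level of the replication mRNAs per length, at 193 ± 70.7 TPM in KMNTC and 149 ± 71.8 in KM4A2cr (SD, n = 4), although Pola2 was higher in replicate 4 of both lines. Pcna had 439, 333, 300 and 193 RPF CPM in KMNTC and 405, 299, 275 and 118 in KM4A2cr. Each KM4A2cr value was below its pair, and the RPF log2 fold change of -0.27 ± 0.14 did not pass (SE, n = 4 pairs; adjusted p = 0.287). Among the clamp loaders, Rfc4 was lowest, with 29.1, 52.9, 43.8 and 25.8 RPF CPM in KMNTC and 30.8, 37.3, 26.5 and 19.4 in KM4A2cr (-0.39 ± 0.16, adjusted p = 0.177). Dscc1 had the highest value at 0.42 ± 0.34, from no more than 3.26 RPF CPM in any library. Rfc1, Rfc2, Rfc3 and Rfc5 had RPF values between -0.21 and -0.07, and none passed in either kind of library.

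The single-strand binding protein RPA was represented by Rpa1 and Rpa2. Rpa1, the large subunit, had 44.5, 47.6, 33.4 and 19.5 RPF CPM in KMNTC and 40.3, 38.4, 29.2 and 12.4 in KM4A2cr, lower in each pair (-0.30 ± 0.14, adjusted p = 0.222). Rpa2 had 28.6, 17.9, 18.6 and 13.8 RPF CPM in KMNTC and 30.9, 21.3, 17.8 and 13.7 in KM4A2cr (0.08 ± 0.13), and the sign of its change turned when libraries were scaled by their totals alone. Neither these nor the flap nuclease Fen1 and the ligase Lig1 passed. Of the fork protection complex, Clspn, an adaptor of the checkpoint kinase CHK1, was lowest and Tipin, the partner of Timeless, was highest. Clspn had 16.4, 17.1, 9.45 and 3.15 RPF CPM in KMNTC and 18.0, 12.2, 7.30 and 0 in KM4A2cr, where the last value is a count of 0, and its fold change (-0.39 ± 0.31) had a wide interval. Tipin had 17.9, 20.3, 22.1 and 15.5 RPF CPM in KMNTC and 25.0, 27.2, 27.6 and 9.69 in KM4A2cr. It was higher in the first 3 pairs and lower in the fourth (0.21 ± 0.19, adjusted p = 0.538).

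Chromatin assembly factor 1 deposits histones behind the fork. Its subunit gene Chaf1b had 19.6, 15.5, 17.0 and 8.39 RPF CPM in KMNTC and 16.9, 13.0, 10.5 and 4.85 in KM4A2cr, and at -0.43 ± 0.16 was lowest of the role (adjusted p = 0.151). Chaf1a and the histone chaperone gene Asf1b were also lower in 4 of 4 pairs without passing. Hells, a chromatin remodeller that aids DNA methylation, was highest, with 146, 113, 94.8 and 53.1 RPF CPM in KMNTC and 159, 127, 110 and 48.2 in KM4A2cr (0.10 ± 0.12), a sign that turned when libraries were scaled by their totals alone. The maintenance methyltransferase gene Dnmt1 and its partner Uhrf1 did not pass.

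Of the G1/S kinase genes, cyclin E2 (Ccne2) had 40.3, 12.9, 17.4 and 5.45 RPF CPM in KMNTC and 41.1, 19.3, 27.9 and 3.23 in KM4A2cr. Its RPF log2 fold change of 0.28 ± 0.20 (SE, n = 4 pairs; adjusted p = 0.432) was the highest of the role. Cdk2, its kinase partner, had 31.9, 22.4, 29.9 and 16.2 RPF CPM in KMNTC and 25.6, 24.5, 22.3 and 22.6 in KM4A2cr, with the lowest value of the role at -0.06 ± 0.17. Cyclin E1 (Ccne1) and the phosphatase gene Cdc25a lay between and none of the 4 passed. E2f7 and E2f8 encode atypical E2F factors that repress E2F targets. E2f8 had 13.4, 9.83, 11.8 and 5.87 RPF CPM in KMNTC and 19.0, 12.4, 18.1 and 7.27 in KM4A2cr. It was higher in KM4A2cr in 4 of 4 pairs and just missed the threshold (0.46 ± 0.15, adjusted p = 0.109). E2f7 had 17.8, 20.5, 16.4 and 10.7 RPF CPM in KMNTC and 15.2, 17.2, 15.7 and 9.42 in KM4A2cr, lower in 4 of 4 pairs (-0.19 ± 0.14, adjusted p = 0.455). The activators E2f1 and E2f2 did not pass in either kind of library. Genes with an E2F-type match in a promoter window had an RPF log2 fold change of -0.13 at the median (25 genes), and those without one had -0.15 (19 genes). In total RNA the medians were 0.02 with a match, where 14 of 25 genes were above 0, and -0.17 without, where 6 of 19 were, and this difference was not tested.

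Across the 54 genes with both values, RPF and total RNA log2 fold changes had Pearson's r of 0.63 and Spearman's rho of 0.59, and 43 had the same sign. These are descriptions across genes that share libraries, and over all 9989 genes r was 0.77. Orc2 and Gins4 lay furthest from equality among the called genes, with lower mRNA and footprints close to 0. At an unadjusted p under 0.05 there were 8 genes in TE (14.8%, beside 14.1% of all tested genes), lower for Clspn, Mcm4, Pold2, Pole2 and Rfc4 and higher for Gins4, Orc2 and Tipin, and only Orc2 remained after adjustment.

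**Figure D3:**
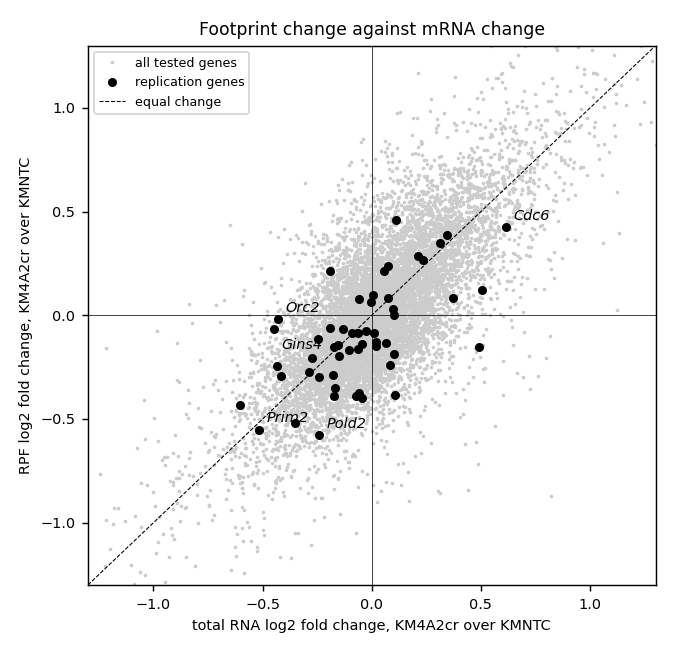
RPF log2 fold change (y axis) against total RNA log2 fold change (x axis), KM4A2cr over KMNTC, for 54 replication genes (black) and all 9989 genes tested in both (grey, those beyond the axes left out). The dashed line marks equal change. Orc2 and Gins4 lie left of 0 at RPF values of -0.02 and -0.07, and Prim2 lies close to the line.

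The replication genes were low together in replicate 4 of both lines. The 55 genes took 0.262%, 0.258%, 0.180% and 0.0815% of RPF counts in KMNTC replicates 1 to 4 and 0.216%, 0.217%, 0.151% and 0.0647% in KM4A2cr. Their share of total RNA counts was 0.203%, 0.205%, 0.177% and 0.104% in KMNTC and 0.183%, 0.175%, 0.142% and 0.0878% in KM4A2cr. The share was lower in KM4A2cr in each of the 8 pairs and was lowest in replicate 4 of both lines. These are shares of raw totals, on which the median log2 fold change of all tested genes was itself -0.14 in RPFs and -0.15 in total RNA. Compared with the mean of replicates 1 to 3, log2 CPM of RPFs in replicate 4 was lower for 53 of the 55 genes in each line, with a median of -1.02 in KMNTC and -1.43 in KM4A2cr, while the median of all tested genes was 0.00 and -0.05. In total RNA the medians were -0.86 and -0.93. For MCM2-7 the RPF medians were -1.75 and -1.93, and for 52 mitotic genes -0.62 and -0.69. Library totals were also lowest in replicate 4, and Cd68, which made up nearly all of the leukocyte marker level, was highest there, the summed level of that list ranging from 33.4 to 221 TPM in KMNTC and from 37.7 to 155 TPM in KM4A2cr. Their part in the levels of the replication genes was not tested. By replicate pair, the median RPF log2 difference between the lines was 0.03, -0.07, -0.18 and -0.25 for pairs 1 to 4.

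**Figure D4:**
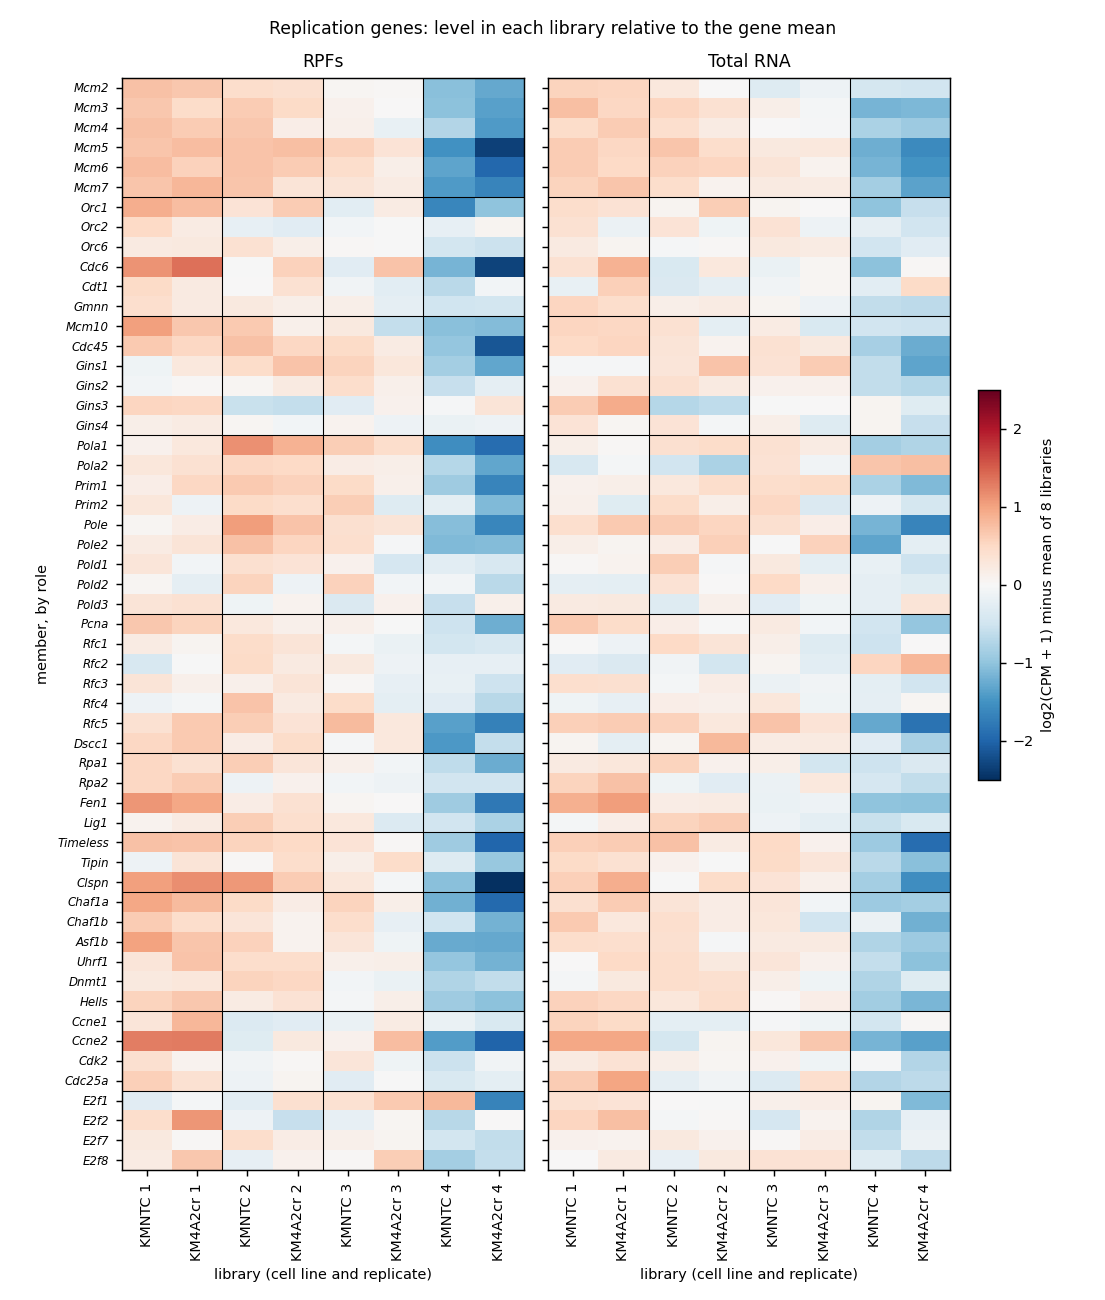
Level of each replication gene (rows, grouped by role) in each library (columns, ordered by replicate), as log2(CPM + 1) minus the mean of the 8 libraries of that kind, in RPFs (left) and total RNA (right). Blue is below and red above the gene's mean. Most rows are blue in both lines of replicate 4, with exceptions such as Pola2 and Rfc2 in total RNA.

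Genes outside the group gave the scale of these values. Of 41 other replication genes, 40 were tested in RPFs and 4 passed (10.0%, beside 10.3% of all tested genes). The count was 0 without replicate 1, 2 or 3, where 2.27%, 1.20% and 0.31% of all genes passed. It was 0 without the replicate block, where no gene passed, and 12 without replicate 4 (30.0%, beside 33.4% of all genes). Usp1, the deubiquitinase that acts on PCNA, was higher (0.44 ± 0.13, adjusted p = 0.091), and Rnaseh2a, Chtf8 and Ssrp1 were lower, at -0.43 ± 0.12, -0.50 ± 0.14 and -0.41 ± 0.13. In total RNA 2 of 41 passed (4.88%, beside 6.13% of all tested genes). That count was 0 without the block or without replicate 3, 1 (Pold4) without replicate 1 or 2, and 8 without replicate 4 (19.5%, beside 29.8%). Dbf4, the activator of the CDC7 kinase, was lower at -0.53 ± 0.13 (adjusted p = 0.0551), and Pold4, which had 0 RPF counts in every library and was named after its values were seen, was higher at 1.05 ± 0.17. In TE Usp1 alone passed, at 0.70 ± 0.11 (adjusted p = 0.00334). Of 30 RB-E2F and G1 regulators, the CDK inhibitor genes Cdkn2a and Cdkn2b were lower in RPFs (-1.08 ± 0.14 and -1.20 ± 0.21). They were the only calls among 27 tested (7.41%, beside 10.3% of all tested genes). In total RNA both were lower again, Mybl2 was lower (-0.58 ± 0.14) and Cdkn1a, which encodes the CDK inhibitor p21, was higher (0.63 ± 0.17, adjusted p = 0.0794). These were the calls among 29 tested (13.8%, beside 6.13% of all tested genes).

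By contrast with the replication genes, 15 of 52 mitotic genes (28.8%) were lower in KM4A2cr in RPFs and none was higher. Of all tested genes 10.3% passed, 3.72% lower and 6.6% higher. Their median RPF log2 fold change was -0.33, and Cdc20 (-0.87 ± 0.15), Knl1 (-0.83 ± 0.18), Espl1 (-0.77 ± 0.15), Ccnb1 (-0.67 ± 0.13) and Nusap1 (-0.66 ± 0.13) were among those called. In total RNA 4 of 52 (7.69%) were lower, with a median of -0.29, where 1.78% of all tested genes were lower. The counts of both lists are descriptions, and the difference between the lists was not tested. The RPF count was 0 without the replicate block, 8 without replicate 1, 0 without replicate 2 or 3 and 25 without replicate 4. Of all genes none passed without the block, and 2.27%, 1.20% and 0.31% passed without replicate 1, 2 or 3. Without replicate 4, 33.4% passed and 1 mitotic gene was higher. The total RNA count was 0 without the block or without replicate 2 or 3, 2 without replicate 1 and 28 without replicate 4. Of all genes 1.91% passed in total RNA without replicate 1 and 29.8% without replicate 4. Genes on chromosome 2 had an RPF log2 fold change of -0.21 at the median, and 85 of 833 were called lower. In total RNA their median was -0.17, and 48 of 900 were called lower. Of the replication genes Mcm10, Gins1, Pcna and E2f1 are on that chromosome, and without them the RPF median stayed at -0.13. Of 43 mitotic genes off chromosome 2, 8 were called lower in RPFs and 0 in total RNA, with medians of -0.30 and -0.25. The part of that chromosome in the result was not tested.

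**Figure D5:**
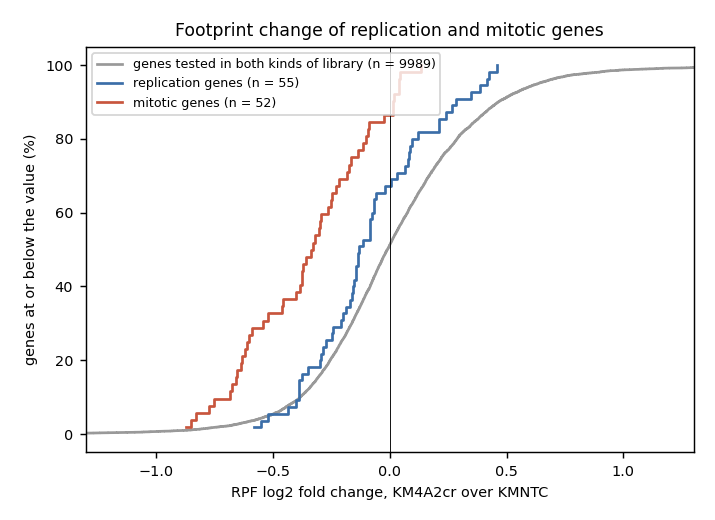
Cumulative share of genes (y axis, percent) at or below each RPF log2 fold change of KM4A2cr over KMNTC (x axis), for 55 replication genes, 52 mitotic genes and the 9989 genes tested in both kinds of library. The replication gene curve, with a median of -0.13, runs between that of all genes and that of the mitotic genes, with a median of -0.33, over most of its course.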

How the data were processed

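RPFs and cytoplasmic total RNA of KMNTC and KM4A2cr cells (4 replicates each) were analysed. The authors deposited RPF counts per transcript, made with Cutadapt 1.18, UMI-tools 1.0.1 and BBmap against the most abundant GENCODE vM27 transcript of each gene, from fragments of 28 to 33 bases in the coding region, leaving out 20 codons at its start and 10 at its end. The authors also deposited, for total RNA, RSEM 1.3.3 expected counts and TPM per isoform after Bowtie2 2.3.5.1, which were summed per gene here and the expected counts rounded.

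Counts were filtered (filterByExpr), TMM-normalised and tested with edgeR 4.0.16 in R 4.3.3 (glmQLFit, glmQLFTest), with cell line and replicate as terms and Benjamini-Hochberg adjustment over all tested genes (threshold 0.1). Each kind of library was normalised separately, so a change of all footprints or all mRNA leaves no trace. TE was the interaction in 1 model over 16 libraries, blocking on the lysate and on the replicate of each library kind. Totals of 4512403 to 9621848 counts limit the precision of scarce genes. Pair differences used log2 CPM with a prior count of 2. Samples were grouped by their titles. A further allele that both lines share is not reported here. The design text calls replicates independent experiments on different days without saying that a number marks the same day in both lines. The numbers were taken to pair the libraries because deviations from the line means correlated within every pair, at 0.575 to 0.782 (RPFs) and 0.611 to 0.756 (total RNA).

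Members, lists and designs were chosen with earlier results of these data known. The named genes are those called, Mcm2 to Mcm7, Pcna and the highest and lowest RPF value of each role, and at most 5 called genes of each other list. Alternatives were no replicate block, DESeq2 1.42.0, 3 other scalings, 2 other filters, a threshold of 0.05, each replicate left out, the RPF isoform only, each pair alone, a prior count of 0.5 and TPM against counts per transcript length. Tests were checked on simulated counts first. Coding lengths were not used here, so RPF levels are not compared between genes. Chtf8 has 2 gene identifiers, and the one tested in RPFs was used. Promoters were matched by symbol to RefSeq.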

Additional observations from a re-analysis of the deposited data

Results flagged for a closer look

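In groups of 4 libraries, the highest or lowest value stood apart from the other 3 by more than Dixon's limit in 7 of 116 groups of named genes, and chance passes about 1 in 20. Mcm5 RPFs in KMNTC were low in replicate 4, at 7.97 CPM. Orc2 RPFs in KMNTC were high in replicate 1, at 60.0 CPM, and Orc2 total RNA was low in replicate 4 of both lines, at 63.4 CPM in KMNTC and 53.5 CPM in KM4A2cr. Pold3 was high in replicate 1 of KM4A2cr RPFs, at 14.0 CPM, and of KMNTC total RNA, at 23.3 CPM. Tipin RPFs in KM4A2cr were low in replicate 4, at 9.69 CPM. All 7 are groups of replication genes. The RPFs of the targeted gene Eif4a2, given above, are left out of this count and are not thereby regular. Their replicate 4 value stood far above the other replicates in both lines.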

How the results depend on the processing

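Without the replicate block 0 replication genes were called lower in RPFs, 0 lower and 0 higher in total RNA and 0 higher in TE. At a threshold of 0.05 these 4 counts were likewise 0. No tested gene passed in any comparison without the block. At 0.05, 438 of 10291 tested genes passed in RPFs, 321 of 10880 in total RNA and 76 of 9989 in TE. Scaled by library totals, 11 were lower in RPFs (20.0%, median -0.27), where 15.7% of all tested genes passed (median -0.14). In total RNA 5 were lower and 0 higher (9.26%, median -0.21), where 10.4% of all tested genes passed (median -0.15). In TE 0 were higher under this scaling, where 1.32% of all tested genes passed. Without a filter on low counts 3 were lower in RPFs (5.45%, beside 8.72% of all genes), and 1 lower and 2 higher in TE (5.45%, beside 3.45%). DESeq2 called 0 lower and 0 higher in total RNA (5.41% of all genes passed) and 0 higher in TE (1.39% of all genes). The RPF isoform only gave 0 and 0 in total RNA, where 4.81% of all genes passed. At least 50 counts left 1 lower and 0 higher in total RNA (2.08%, beside 5.37% of all genes). Upper-quartile factors left 3 lower and 0 higher there (5.56%, beside 4.97%). RLE factors gave 2 higher in TE (3.70%, beside 3.20%). Leaving out 1 replicate gave 0 to 7 lower and 0 to 5 higher in RPFs. In total RNA it gave 0 to 9 lower and 0 to 3 higher, and in TE 0 to 2 higher. Every highest count was reached without replicate 4, where 33.4% of all genes passed in RPFs, 29.8% in total RNA and 6.68% in TE. Pair 1 alone had a median of 0.027 in RPFs, and pairs 3 and 4 alone had -0.14 and -0.15 in total RNA. The cause of these differences was not tested.

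Of 33 changes of named replication genes, 5 turned sign in some setting, and none of the 5 was called. RPF values turned for Orc2 (-0.12 to 0.083), Gins4 (-0.11 to 0.021) and Cdk2 (-0.20 to 0.10) over the fits that left out a replicate, and for Rpa2 (-0.058) and Hells (-0.036) under library totals. Each of the 6 calls was lost without the block and without replicate 1, 2 or 3. With 4 pairs and median standard errors of 0.16 (RPFs) and 0.15 (total RNA) in log2, small changes were not detectable.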
